A study of Mus musculus with 6 samples.

Results

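Imprinted genes are genes of which mainly the copy inherited from the mother or mainly the copy inherited from the father is transcribed. A list of 35 mouse imprinted genes, given by symbol and grouped here into 17 imprinted clusters or solitary loci, was followed in poly(A) RNA sequencing of lenses at E15.5. Of the 35 genes, 34 had a row among the 41128 features of the files, 31 had at least 1 read, and 26 had at least 1 CPM (read counts scaled to a common library total) in at least 3 libraries and entered the test; Peg13 is not analysed here. The members were chosen by gene name, with no limit on any value, but with earlier CPM values and fold changes of the same libraries known, for the comparison of the conditional knockout with the wild type. Fold changes and calls of that comparison are therefore given as a description of the members and not as independent support for a pattern.

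The comparison was between 2 groups of 3 libraries, each library from pooled lenses whose embryos the labels do not number. The cKO group was homozygous for floxed alleles of Itgb1, the gene of β1-integrin, carried MLR10, a Cre transgene expressed throughout the lens, had a mixed strain background, and held 30 lenses per library. The wild-type (WT) group was C57Bl/6 without floxed alleles or Cre in its label, held 75 lenses per library, and was, by its records, taken over from a series deposited before. Genotype, Cre, strain, pool size and series of origin thus differ between the groups together and cannot be told apart. The cKO libraries held 20036554 to 28095318 counted reads and the WT libraries 10023049 to 11531139. Itgb1 read 236, 275 and 262 CPM in cKO and 402, 424 and 448 CPM in WT, so the level of the targeted gene fitted the labels. Of 8 lens markers fixed for the check, among them Cryaa, Mip and Pax6, all were tested, and 0 were higher. The 2 lower ones (25%, against 15.9% of all tested genes) were Mip (log2 fold change -0.21, groups apart) and Foxe3 (-0.37). The summed level of the 8 markers was 181960 to 207040 CPM in cKO and 191270 to 207060 CPM in WT. This sum is mostly Cryaa (mean 140100 CPM in WT) and says little about the less abundant markers.

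Imprinted genes lie in clusters in which a control region, methylated on the copy from one parent in the germ line, sets which copy is active. Many paternally expressed members, such as Igf2, promote embryonic growth, and several imprinted genes of the maternal copy, such as Igf2r and Cdkn1c, restrain it. In the lens, insulin-like growth factors are known to act on cell survival and fibre differentiation, and Cdkn1c, a cyclin-dependent kinase inhibitor, on the cell cycle exit of fibre cells. The deposited values add up the reads of both parental copies, so they measure the total level of a gene and not its allelic state.

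Among the 26 tested members, 9 were higher and 3 lower in cKO lenses at a Benjamini-Hochberg adjusted p under 0.05 (limma on log2(CPM + 1)), and 14 did not pass. Over all 11941 genes tested, 20.9% were higher and 15.9% lower by the same rule, together 36.9%. H19, Igf2, Plagl1, Dlk1, Peg10, Peg12, Slc38a4, Ube3a and Snrpn were higher, and Nnat, Mest and Airn were lower. The groups did not overlap in 14 of the 26 members, against 48.1% of all genes tested; the 12 called members were among these 14. The median log2 fold change was 0.12 over the tested members and 0.03 over all tested genes. By the parent whose copy is known to be expressed, 7 of 16 tested paternally expressed members were higher and 3 lower, and 1 of 7 tested maternally expressed members, H19, was higher and 0 lower. Of the 3 members whose expressed copy depends on the tissue, Ube3a was higher, and Grb10 and Gnas did not pass. No difference between these classes was tested. More than 1 member was tested only in Igf2-H19, Igf2r-Airn, Peg3, Peg10-Sgce, Dlk1-Dio3 and Snrpn-Ube3a, so no other locus could hold more than 1 call. Among these, Igf2-H19 and Snrpn-Ube3a held more than 1 call, and in both the calls were higher. The calls of H19, Igf2, Peg10, Plagl1, Dlk1, Peg12, Ube3a, Slc38a4 and Nnat were kept under each alternative processing in which the gene was tested, whereas those of Snrpn, Mest and Airn were not.

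**Figure D1:**
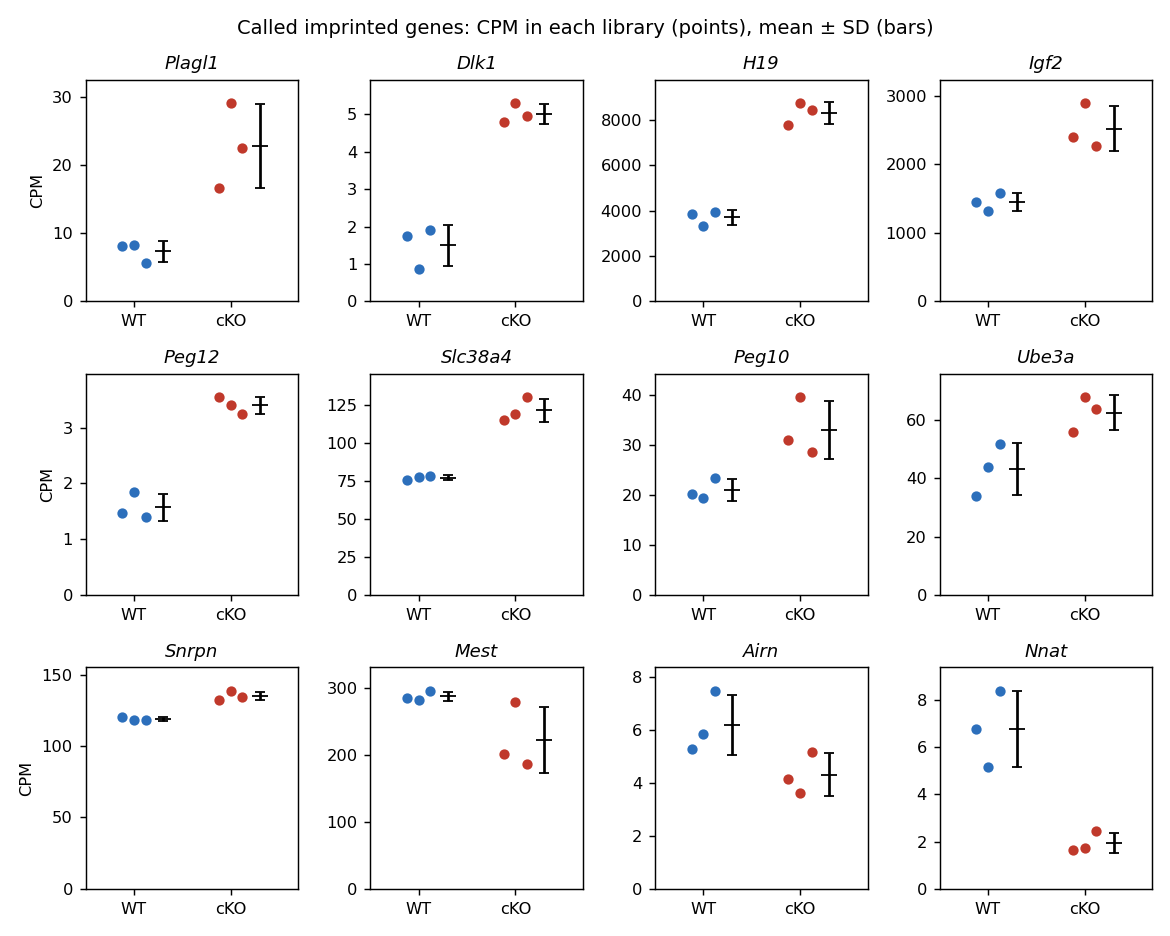
CPM of the 12 called members in each of 3 WT (blue) and 3 cKO (red) libraries, on linear axes that start at 0, with the mean and SD beside the points. The groups do not overlap in any of the 12 panels, with narrow gaps for Snrpn, Mest, Airn and Ube3a.

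The plot of CPM by library shows how far apart the groups were. The wild-type points of Slc38a4 and Snrpn lie close together, and the cKO points of Plagl1 and Mest are the most widely spread of their panels.

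**Figure D2:**
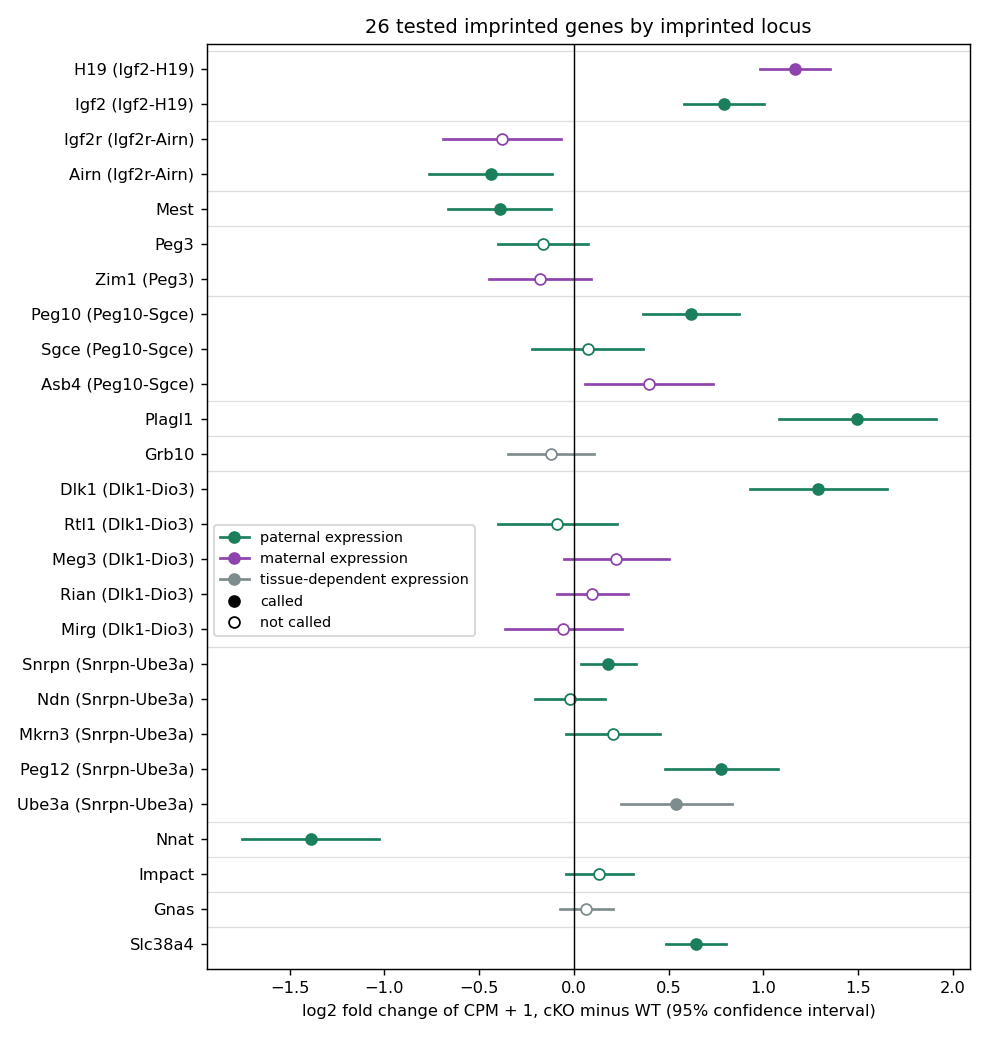
Log2 fold change of CPM + 1, cKO minus WT, with its 95% confidence interval for the 26 tested members, ordered by locus and coloured by the parental copy known to be expressed; filled points were called. The called values run from 1.5 for Plagl1 to -1.39 for Nnat.

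The plot of fold changes by locus sets the members of a cluster beside each other. The Igf2r-Airn, Peg10-Sgce, Dlk1-Dio3 and Snrpn-Ube3a clusters held called and uncalled members side by side.

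The Igf2-H19 cluster on chromosome 7 held the most abundant members. H19 (ENSMUSG00000000031; GRCm38 chromosome 7, 142575529 to 142578143, minus strand) encodes a long noncoding RNA made from the maternal copy. It read 3854, 3326 and 3926 CPM in the WT libraries and 7787, 8721 and 8412 CPM in the cKO libraries. Every cKO library was above every WT library, and the ratio of the group means was 2.24. Its log2 fold change was 1.17 (95% confidence interval 0.98 to 1.35, limma adjusted p = 5.37e-07). Igf2 (ENSMUSG00000048583; chromosome 7, 142650766 to 142666816, minus strand) encodes insulin-like growth factor 2 and is made from the paternal copy. It read 1442, 1318 and 1587 CPM in WT and 2400, 2886 and 2266 CPM in cKO, again without overlap. Its log2 fold change was 0.79 (95% confidence interval 0.58 to 1.00, limma adjusted p = 5.50e-05). Of the 50-base words in Igf2 transcripts, 62.1% also occur in transcripts of the overlapping model Gm49394, which has no row of its own in the files.

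H19 and Igf2 are known to share enhancers while being expressed from opposite parental copies. Both rose here, H19 by the larger factor, so the ratio of H19 to Igf2 CPM went from 2.67, 2.52 and 2.47 in WT to 3.24, 3.02 and 3.71 in cKO. The 2 groups of ratios did not overlap. H19 alone took 0.333% to 0.393% of all counted reads in WT and 0.779% to 0.872% in cKO. Together with Igf2 it made up 65.9% to 68.9% of the reads of all members in WT and 81.7% to 82.1% in cKO. The other 32 members with a row summed to 2387, 2405 and 2599 CPM in WT and 2216, 2597 and 2346 CPM in cKO, which overlap. The H19 transcript also contains the hairpin of miR-675, whose mature forms are shown because they are the part of this abundant RNA with a known small RNA product; they were not measured by the poly(A) libraries. The capitals mark the seed, bases 2 to 8, as RefSeq (GRCm38.p6, minus strand, chr7:142577112-142577133 and chr7:142577078-142577099) gives them.
mmu-miR-675-5p: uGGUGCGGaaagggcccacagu
mmu-miR-675-3p: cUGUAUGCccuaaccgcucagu
The 2 seeds differ, so the 2 arms fall in different seed groups.

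Plagl1, Dlk1 and Nnat had the largest log2 fold changes of all called members, positive for the first pair and negative for Nnat. Plagl1 (ENSMUSG00000019817; chromosome 10, 13060504 to 13131694, plus strand) encodes a zinc finger transcription factor of the paternal copy that is known to bind within other imprinted clusters, the Igf2-H19 cluster among them. It read 8.15, 8.24 and 5.59 CPM in WT and 16.7, 29.04 and 22.5 CPM in cKO. The cKO libraries were all above the WT libraries, with a log2 fold change of 1.5 (95% confidence interval 1.08 to 1.91, limma adjusted p = 0.000178). Nnat (ENSMUSG00000067786; chromosome 2, 157560078 to 157562522, plus strand) encodes neuronatin, a small membrane protein of the endoplasmic reticulum, and lies within an intron of Blcap on the opposite strand. It read 6.76, 5.17 and 8.38 CPM in WT and 1.65, 1.73 and 2.46 CPM in cKO. Its highest cKO library was below its lowest WT library, and the log2 fold change was -1.39 (95% confidence interval -1.75 to -1.03, limma adjusted p = 5.05e-05). Blcap, its host gene, read 31.6 ± 1.94 CPM in WT and 31.2 ± 2.35 CPM in cKO (SD, n = 3 each) and did not pass the test. The ratio of Nnat to Blcap was 0.166 to 0.280 in WT and 0.0526 to 0.0761 in cKO.

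The promoters of Plagl1, Nnat and Dlk1 are printed because these genes moved most among the called members with an entry in the RefSeq promoter table (GRCm38.p6), which matched 29 of the 35 members. Capitals mark TGCCGC, read on both strands (GCGGCA on the other), the letters that the imprint-protecting factor ZFP57 is known to bind when methylated. The stretches are the 250 bases before each start, on the plus strand, at chr10:13090582-13090831 for Plagl1, chr2:157559828-157560077 for Nnat and chr12:109452573-109452822 for Dlk1.
Plagl1: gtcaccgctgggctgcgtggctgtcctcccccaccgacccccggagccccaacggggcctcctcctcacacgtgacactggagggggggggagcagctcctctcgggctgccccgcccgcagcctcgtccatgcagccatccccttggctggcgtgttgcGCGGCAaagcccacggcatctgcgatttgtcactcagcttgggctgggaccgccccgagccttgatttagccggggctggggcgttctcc
Nnat: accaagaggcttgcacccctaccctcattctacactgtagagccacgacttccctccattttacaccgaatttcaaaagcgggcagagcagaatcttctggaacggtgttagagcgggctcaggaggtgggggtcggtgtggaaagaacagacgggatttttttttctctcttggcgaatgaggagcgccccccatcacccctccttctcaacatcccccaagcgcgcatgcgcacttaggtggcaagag
Dlk1: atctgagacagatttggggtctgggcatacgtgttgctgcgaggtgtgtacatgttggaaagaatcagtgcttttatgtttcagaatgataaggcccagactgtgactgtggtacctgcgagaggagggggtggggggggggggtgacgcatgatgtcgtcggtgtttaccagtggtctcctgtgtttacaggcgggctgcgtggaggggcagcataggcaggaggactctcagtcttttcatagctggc
The Plagl1 stretch held 1 match and 19 CpG, the Nnat stretch 0 matches and 12 CpG, and the Dlk1 stretch 0 matches and 8 CpG. The Nnat window had 1 further match in the 50 bases after the start, which are not printed. Of the 45 promoter windows of members, counting 300 bases each and several windows for some genes, 22.2% held the letters, against 11.6% of all 32851 windows. Some windows of a gene overlap and are counted separately. The Mest windows that start at 30737800 and 30737803 are nearly the same stretch and held 2 matches each. The median number of CpG was 12 in members' windows and 7 in all windows. These are matches of letters and say nothing about binding in these lenses.

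In the Dlk1-Dio3 cluster on chromosome 12, 1 of the 5 tested members was called. Dlk1 (ENSMUSG00000040856; 109452823 to 109463336, plus strand), which encodes a transmembrane ligand related to Notch ligands and is made from the paternal copy, read 1.73, 0.877 and 1.90 CPM in WT and 4.79, 5.29 and 4.95 CPM in cKO. These are 10 to 20 reads per WT library and 96 to 139 reads per cKO library. Dlk1 reached 1 CPM in all cKO libraries but not in WT replicate 2. Only the cKO group, where it was high, thus met the filter by itself. The groups did not overlap, and the log2 fold change was 1.29 (95% confidence interval 0.93 to 1.65, limma adjusted p = 8.79e-05). Meg3 and Rian, noncoding RNAs of the maternal copy, were far more abundant per length than Dlk1. Meg3 read 202, 146 and 154 CPM in WT and 209, 211 and 166 CPM in cKO, with overlap (log2 fold change 0.22, limma adjusted p = 0.192). Without WT replicate 1 its log2 fold change was 0.37 and passed (limma adjusted p = 0.0179). Rian, which hosts many small nucleolar RNAs, read 165 to 199 CPM in WT and 179 to 209 CPM in cKO (0.10, limma adjusted p = 0.411). Mirg, a further noncoding RNA of that copy, which hosts a cluster of miRNAs, read 4.38 to 6.42 CPM in WT and 4.55 to 5.09 CPM in cKO (-0.06, limma adjusted p = 0.791). Rtl1, a gene derived from a retrotransposon and made from the paternal copy, read 1.497 to 1.84 CPM in WT and 1.25 to 1.65 CPM in cKO (-0.09, limma adjusted p = 0.671). Dio3, which encodes a thyroid hormone inactivating enzyme, had 0, 1 and 0 reads in WT and 0, 6 and 5 reads in cKO and was not tested. The ratio of Rian to Meg3 overlapped between the groups, at 0.985 to 1.17 in WT and 0.879 to 1.08 in cKO, whereas that of Meg3 to Dlk1 was 81.2 to 167 in WT and 33.5 to 43.6 in cKO. The ratio of Mirg to Meg3 was 0.0298 to 0.0317 in WT and 0.0216 to 0.0294 in cKO, ranges that nearly touch. It rests on 46 to 74 reads of Mirg per WT library and 92 to 137 per cKO library. In the annotation 10.4% of the words of Meg3 occur in other genes, mainly in Gm26906 on the opposite strand, which is listed at 0 in all libraries.

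In the Snrpn-Ube3a region of chromosome 7, 3 of 5 tested members were higher and 0 lower. Peg12 (ENSMUSG00000070526; 62461871 to 62464510, minus strand), a paternally expressed gene without introns that belongs to the GSK-3 binding protein family, read 1.47, 1.84 and 1.40 CPM in WT and 3.54, 3.41 and 3.24 CPM in cKO. All cKO values lay above the WT values, and the log2 fold change was 0.78 (limma adjusted p = 0.000848). Ube3a (ENSMUSG00000025326; 59228750 to 59311536, plus strand), a ubiquitin ligase gene whose maternal bias is known from neurons, read 33.8, 43.7 and 51.7 CPM in WT and 55.7, 67.6 and 63.8 CPM in cKO. The groups were separate by a narrow gap, with a log2 fold change of 0.54 (95% confidence interval 0.25 to 0.83, limma adjusted p = 0.00832). Of its 50-base words, 24.8% are shared, mainly with Gm44560, which is not listed in the files. Snrpn, which encodes a spliceosomal protein, read 120.2, 118.2 and 118.2 CPM in WT and 132, 138 and 134 CPM in cKO, without overlap. Its log2 fold change of 0.18 passed narrowly (95% confidence interval 0.04 to 0.33, limma adjusted p = 0.0496), and the call was lost when any of the 6 libraries was left out and with no filter on low values, TMM scaling, RLE scaling, edgeR and DESeq2. The identifier that the files give for Snrpn names the overlapping model Gm38393 in GENCODE M21, so reads of both transcripts may be counted here. Ndn, which encodes necdin, a growth suppressor of neurons, read 125, 124 and 106 CPM in WT and 122, 120.3 and 108 CPM in cKO, with overlap (log2 fold change -0.02, limma adjusted p = 0.876). Mkrn3, a makorin ring finger gene, read 7.38 to 9.28 CPM in WT and 8.93 to 9.84 CPM in cKO (0.21, limma adjusted p = 0.181). Magel2 had 0 to 1 reads in WT and 0 to 5 reads in cKO and was not tested.

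Next to each other on chromosome 6, Peg10 and Sgce are read in opposite directions from neighbouring starts, both from the paternal copy. Peg10 (ENSMUSG00000092035; 4747306 to 4760517, plus strand), a placental gene derived from a retrotransposon, read 20.3, 19.4 and 23.4 CPM in WT and 30.99, 39.5 and 28.5 CPM in cKO. Its log2 fold change was 0.62 (95% confidence interval 0.36 to 0.87, limma adjusted p = 0.00141), and the groups did not overlap. Sgce, which encodes ε-sarcoglycan, read 4.49 to 5.72 CPM in WT and 4.65 to 6.14 CPM in cKO, with overlap (0.07, 95% confidence interval -0.22 to 0.37, limma adjusted p = 0.714). The ratio of Sgce to Peg10 overlapped, at 0.191 to 0.282 in WT and 0.118 to 0.205 in cKO. The maternally expressed neighbour Asb4, an ankyrin repeat gene, read 1.91, 2.02 and 1.497 CPM in WT and 2.15, 3.31 and 2.67 CPM in cKO. Its groups did not overlap, but the log2 fold change of 0.40 did not pass (limma adjusted p = 0.0636), and it passed without cKO replicate 1.

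Slc38a4 (ENSMUSG00000022464; chromosome 15, 96994820 to 97055956, minus strand), an amino acid transporter gene of the paternal copy, varied little within a group. It read 75.9, 78.1 and 78.4 CPM in WT and 116, 119 and 130 CPM in cKO. The groups were well apart, with a log2 fold change of 0.64 (95% confidence interval 0.49 to 0.80, limma adjusted p = 3.13e-05).

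Members that were lower lay in 3 loci. Mest (ENSMUSG00000051855; chromosome 6, 30723547 to 30748465, plus strand), which encodes a hydrolase-like protein linked to growth, read 285, 283 and 296 CPM in WT and 202, 279 and 186 CPM in cKO. The cKO replicate 2 library lay just under the WT range and replicates 1 and 3 further below. The log2 fold change was -0.39 (95% confidence interval -0.66 to -0.12, limma adjusted p = 0.0283), and leaving out cKO replicate 1, cKO replicate 3 or any WT replicate ended the call. Mest shares 21.2% of its words with Copg2, which overlaps its end on the opposite strand and stood at 95.1 ± 2.50 CPM in WT and 90.8 ± 9.24 CPM in cKO (SD, n = 3 each). Airn (ENSMUSG00000078247; chromosome 17, 12741311 to 12860136, plus strand), the paternal noncoding RNA that runs antisense through Igf2r, read 5.29, 5.87 and 7.48 CPM in WT and 4.14, 3.61 and 5.20 CPM in cKO. Its log2 fold change was -0.44 (limma adjusted p = 0.0354), and the call ended on leaving out cKO replicate 1, cKO replicate 2, WT replicate 2 or WT replicate 3, and with no filter on low values. Igf2r, the receptor that takes up Igf2 for degradation and is made from the maternal copy, read 385, 453 and 539 CPM in WT and 286, 377 and 397 CPM in cKO. The groups overlapped, and the log2 fold change of -0.38 did not pass (limma adjusted p = 0.0574). It did pass with TMM or RLE scaling, edgeR, DESeq2, a mean of at least 5 CPM, and without cKO replicate 3 or WT replicate 1. The ratio of Airn to Igf2r was 0.0130 to 0.0139 in WT and 0.00959 to 0.0145 in cKO. Strand was not recorded by the library kit, and where Airn and Igf2r lie on the same stretch their reads cannot be told apart, although their annotated transcripts share 0% of their 50-base words.

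**Figure D3:**
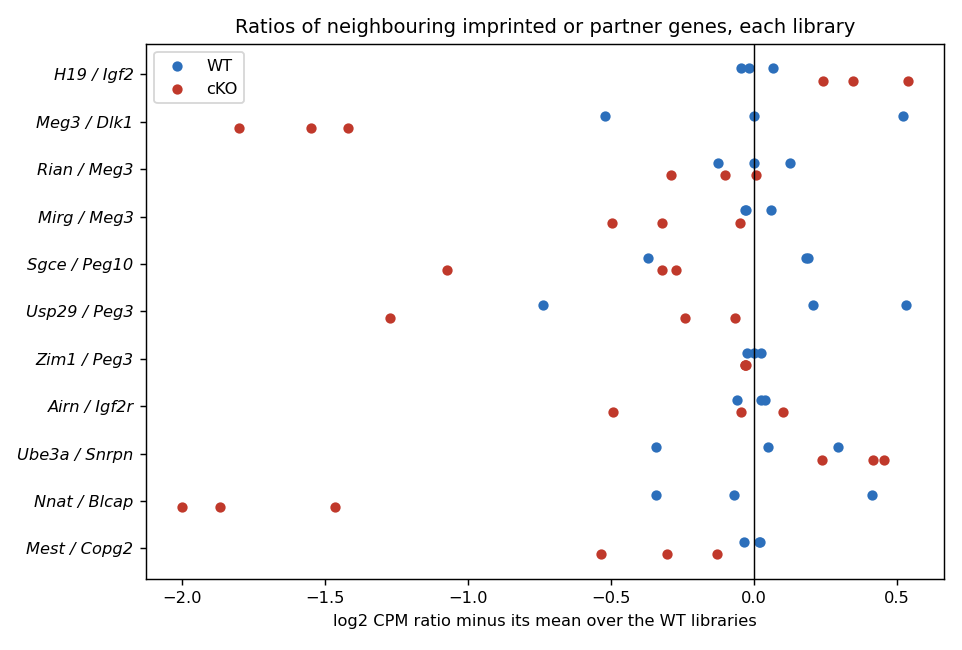
Log2 of the CPM ratio of 2 neighbouring genes in each library, minus its mean over the WT libraries (blue, WT; red, cKO). The ratios of Meg3 to Dlk1 and of Nnat to Blcap lie furthest to the left in cKO, that of H19 to Igf2 lies to the right, and Zim1 to Peg3 stays close to 0 in all 6 libraries.

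As the plot of ratios shows, Peg3 and Zim1 on chromosome 7 differed little in proportion. Peg3, a paternally expressed zinc finger gene, read 430, 451 and 532 CPM in WT and 358, 486 and 420 CPM in cKO, with overlap (log2 fold change -0.16, 95% confidence interval -0.40 to 0.07, limma adjusted p = 0.264). Zim1, a maternally expressed zinc finger gene beside it, read 10.8 to 13.7 CPM in WT and 8.98 to 12.2 CPM in cKO (-0.18, limma adjusted p = 0.287). The ratio of Zim1 to Peg3 was 0.0252 to 0.0261 in WT and 0.0251 to 0.0252 in cKO, which do not overlap but differ by only -0.03 on the log2 scale. Usp29, which starts next to Peg3 in the opposite direction, had 5 to 13 reads in WT and 5 to 19 reads in cKO and was not tested.

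Grb10, Gnas and Impact did not pass. Grb10, which encodes an adaptor that dampens insulin and insulin-like growth factor receptors, read 183 to 219 CPM in WT and 156 to 213 CPM in cKO (log2 fold change -0.12, 95% confidence interval -0.35 to 0.11, limma adjusted p = 0.394). Gnas, which encodes the stimulatory G protein α subunit, read 209 to 214 CPM in WT and 219 to 223 CPM in cKO. Its groups did not overlap, but the log2 fold change of 0.06 did not pass (limma adjusted p = 0.464), and the gene count adds up transcripts with different imprinting. Impact, a regulator of translation made from the paternal copy, read 47.0 to 53.0 CPM in WT and 51.04 to 58.3 CPM in cKO (0.13, limma adjusted p = 0.221). For none of these does the missed threshold show that the groups were alike.

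The Kcnq1 cluster gave no tested member. Phlda2, a placental growth restrainer, had 1 to 3 reads in WT and 1 to 2 reads in cKO, and Ascl2, a transcription factor gene of the trophoblast, had 0 to 1 reads in each group. The noncoding RNA gene Kcnq1ot1, and Zrsr1 and Nap1l5, which lie within introns of Commd1 and Herc3, were listed at 0 in all 6 libraries. Commd1 and Herc3 themselves were at 9.17 and 9.31 CPM in WT. The sources used here do not give the authors' rule for reads of such nested genes, and these zeros say only how the genes are listed. For the members with reads in some libraries and 0 in others (Dio3, Ascl2 and Magel2), a count of 0 allows up to 3 reads, which is 0.107 to 0.150 CPM in a cKO library and 0.260 to 0.299 CPM in a WT library, for counting error only.

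Levels between genes were compared per length, in RPKM, which is CPM per kilobase of transcript. In WT, H19 stood at 1561 ± 138 RPKM and Igf2 at 253 ± 23.5 RPKM (SD, n = 3 each), and no library of the one reached the range of the other. Mest (73.2 ± 1.74 RPKM) and Ndn (71.7 ± 6.45 RPKM) followed with overlapping ranges. Igf2r (48.7 ± 8.17 RPKM) came next, and Snrpn (38.6 ± 0.375 RPKM) and Peg3 (35.4 ± 4.07 RPKM) overlapped each other. Grb10, Slc38a4, Gnas, Rian and Impact lay between 14.6 and 22.2 RPKM, where Rian and Impact overlapped and the others did not overlap their neighbours in the order. Below 4 RPKM most neighbours overlapped, as Nnat, Zim1, Mkrn3 and Peg10 did. In cKO the order opened with H19 at 3502 ± 201 RPKM and Igf2 at 440 ± 56.97 RPKM. Nnat moved from rank 15 of 31 in WT to rank 22 in cKO, and Plagl1 from rank 21 to rank 17.

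**Figure D4:**
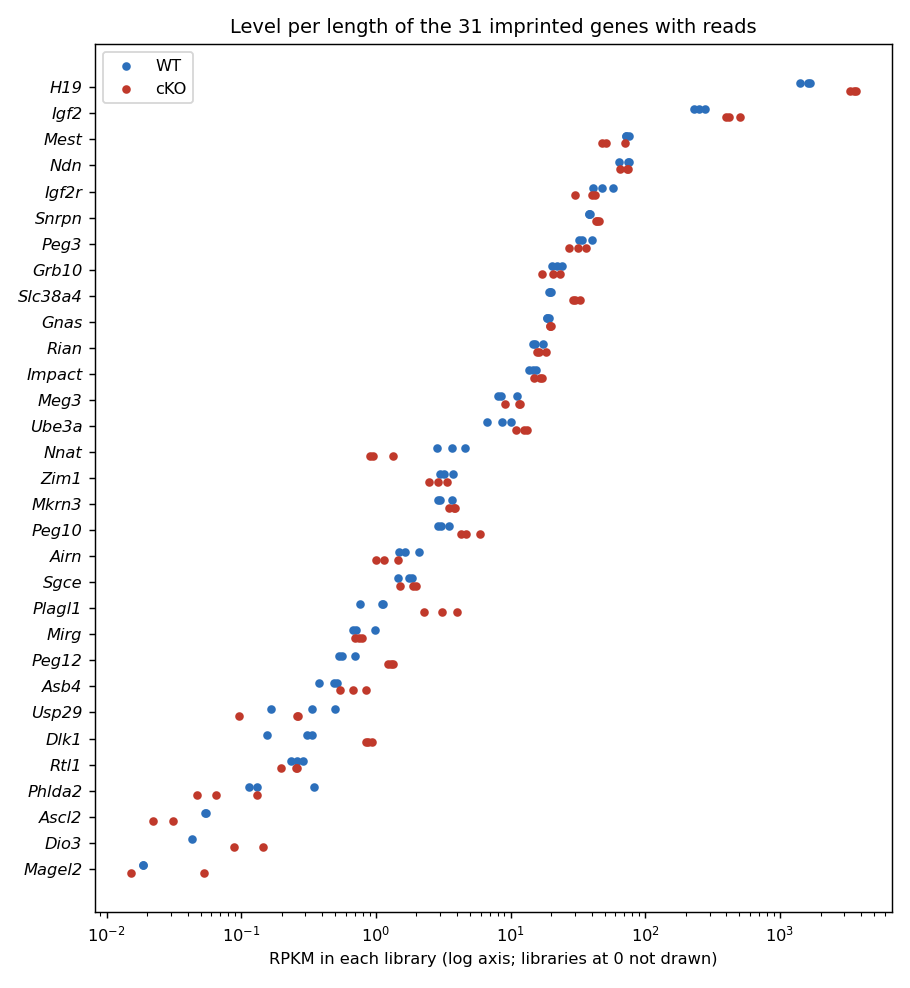
RPKM of the 31 members with reads in each WT (blue) and cKO (red) library on a log axis, ordered by the WT mean. WT means run from 0.0125 RPKM for Magel2 to 1561 RPKM for H19. The groups are apart for 14 tested members, among them H19, Igf2, Nnat, Plagl1 and Dlk1.

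The plot of levels per length spans several orders of magnitude. The first pair, H19 and Igf2, opened the order in both groups.

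Imprinted genes outside the list were given by a second list of 47, of which 44 had a row and 27 were tested. Of these 27, 1 was higher and 4 were lower, 3.70% and 14.8% against 20.9% and 15.9% of all tested genes, with a median log2 fold change of 0.01. Cdkn1c, a maternally expressed cell cycle inhibitor gene of the Kcnq1 cluster, read 1618 ± 45.6 CPM in WT and 1139 ± 40.4 CPM in cKO (SD, n = 3 each; log2 fold change -0.51, limma adjusted p = 0.00012). H13 (-0.33), Osbpl5 (-0.43) and Trappc9 (-0.46) were also lower, and Inpp5f (0.35), named because it was the 1 higher gene, was higher; its call ended without cKO replicate 2 or WT replicate 3. Genes listed for imprint maintenance, which also included Tet1, Tet2, Tet3 and Rlim, had 4 of 19 tested genes higher and 4 lower. These shares were 21.1% each, near the 20.9% and 15.9% of all tested genes. Rlim was among the 4 higher genes. Uhrf1 (-0.64) and Dnmt1 (-0.52), which copy DNA methylation at replication, and Trim28 (-0.35), the corepressor that ZFP57 recruits, were lower. Zfp57 itself, singled out after its values were seen, rose from 1.499 ± 0.368 to 2.69 ± 0.453 CPM (log2 fold change 0.57), a call that ended without cKO replicate 1 or 2 and with DESeq2, and Arid4b rose by 0.32.

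On the axis of insulin-like growth factors, 2 of 18 tested genes were higher and 2 lower, 11.1% each against 20.9% and 15.9% of all tested genes. Igfbp3, which encodes a binding protein that sequesters the factors, rose from 10.7 ± 1.07 to 23.2 ± 1.64 CPM (log2 fold change 1.05, limma adjusted p = 7.14e-06), and Stc2 rose by 0.53, a call that ended without cKO replicate 3 and with DESeq2. Stc2 stood at 0.998 CPM in WT replicate 3, so only the cKO group, where it was high, met the filter by itself. Igf1r, the main signalling receptor for Igf2, fell from 50.8 ± 9.20 to 35.7 ± 6.34 CPM (-0.50, limma adjusted p = 0.0207), and its adjusted p was 0.0514 without WT replicate 2 and 0.0515 without cKO replicate 1 (limma). Lin28a, an RNA-binding protein gene and the other one called lower, read 3.56, 2.54 and 2.00 CPM in WT and 0.0998, 0.693 and 0.178 CPM in cKO. It reached 1 CPM in WT alone and so entered the test through the group where it was high, and without any 1 WT replicate it was not tested. The RNA-binding proteins of Igf2 mRNA, Igf2bp1, Igf2bp2 and Igf2bp3, did not pass.

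Markers of other cell types moved in the same libraries, in which 20.9% of all tested genes were higher and 15.9% lower. Endothelial markers had 8 of 10 higher and 0 lower, with a summed level of 209 to 246 CPM in cKO and 133 to 160 CPM in WT. Pericyte markers had 4 of 6 higher and 1 lower, with sums of 143 to 167 and 102 to 130 CPM. Of the 12 macrophage markers, 9 were tested and 9 called higher, with sums of 25.9 to 36.9 and 10.06 to 13.2 CPM. Tyrobp and Fcer1g reached 1 CPM in cKO alone, and Cd68, C1qa and C1qb in all cKO libraries but only 1 WT library. These genes thus entered the test through the group where they were high. Mesenchyme markers had 4 of 6 tested genes higher and 1 lower. Their sum was set by Pdgfra, the 1 lower gene (log2 fold change -0.28), and overlapped, at 201 to 240 CPM in cKO and 211 to 254 CPM in WT. Without Pdgfra, left out after its values were seen, the sum was 33.6 to 52.4 CPM in cKO and 17.3 to 20.9 CPM in WT. Prrx1, among the higher genes, reached 1 CPM in all cKO libraries but in only 1 WT library. Foxc2 and Tcf21 were at 0 in all libraries and Osr2 at 0 in WT. Erythroid markers had 2 of 4 tested genes higher and 1 lower, with sums of 94.8 to 170.1 and 93.5 to 110.05 CPM. The higher genes were Hba-a1 (log2 fold change 0.81) and Slc4a1 (1.10), and the lower one was Hba-a2 (-0.50). The paired genes Hba-a1 and Hba-a2 thus went in opposite directions. H19, Igf2 and Dlk1 are known to be active in embryonic mesenchyme as well, and the part of such other cells in the rise of the members was not tested. In pooled tissue, more cells of a type and more RNA per cell cannot be told apart.

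**Figure D5:**
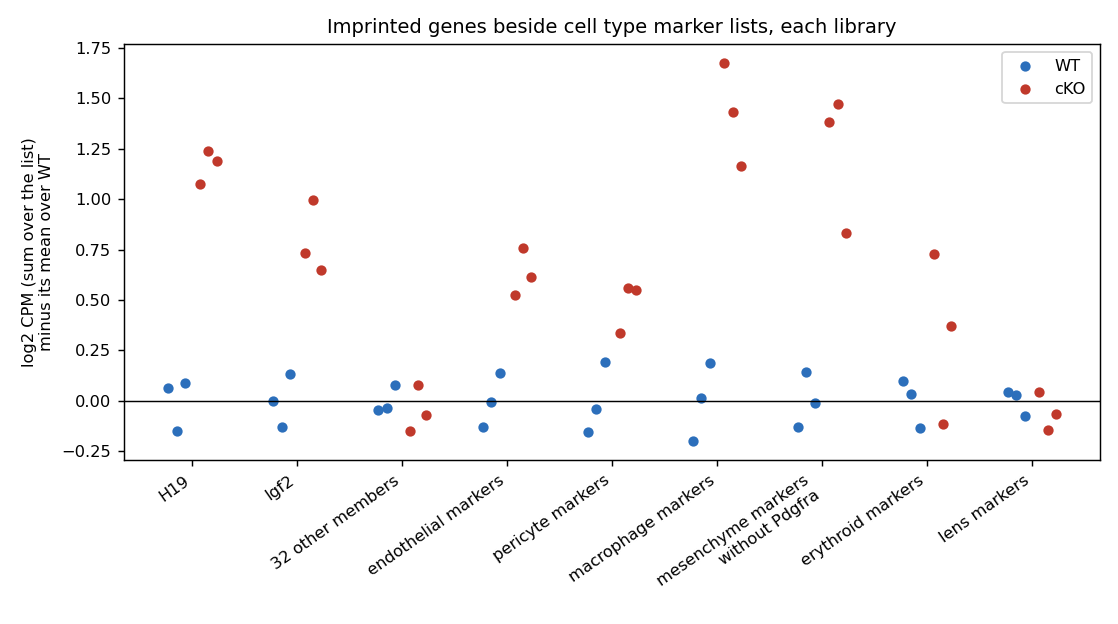
Log2 of the CPM of H19, of Igf2, of the other 32 members summed and of each marker list summed (mesenchyme without Pdgfra), in each library, minus the mean over the WT libraries (blue, WT; red, cKO). H19, Igf2 and the endothelial, pericyte, macrophage and mesenchyme sums are higher in all cKO libraries. The other members and the lens markers, whose sum is mostly Cryaa, overlap between groups, as does the mesenchyme sum with Pdgfra (not drawn).

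In the plot of members beside markers, the cKO libraries of H19 lie close together, while those of the macrophage and mesenchyme sums spread more widely. The highest cKO library was replicate 2 for H19, Igf2, the endothelial and pericyte sums and the mesenchyme sum without Pdgfra, and replicate 1 for the macrophage sum. The lowest was replicate 1 for H19 and the endothelial and pericyte sums, and replicate 3 for Igf2 and the macrophage and mesenchyme sums. Replicate 2 of cKO also had the largest TMM scaling factor of the 6 libraries (1.06), which the CPM drawn here do not use. What these orders reflect was not tested.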

How the data were processed

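RNA of pooled lenses was poly(A)-selected and sequenced single-end without strand marking, per the labels' protocols. Per the file headers, the authors deposited CPM (reads scaled to the library total, over 41128 features) and RPKM (CPM per kilobase). The submitters' processing notes name edgeR and GRCm38; for the aligner, counting program and annotation: not given in the sources used here. CPM values were whole multiples of 1 read (100% within 0.1 reads in each library), so reads were recovered for count tests. The main test was limma 3.58.1 with trend and robust moderation on log2(CPM + 1), group as the only term, over the 11941 genes that reached 1 CPM in 3 or more libraries; on this scale changes of low genes are understated. All adjusted p are Benjamini-Hochberg over those genes. Coordinates and 50-base word sharing (read length) come from GENCODE M21 (GRCm38). Alternatives were TMM and RLE scaling, 2 other filters, a pseudocount of 0.1, edgeR 4.0.16, DESeq2 1.42.0, a replicate block, and leaving out each library. P-values measure the spread between these pooled libraries, which may be technical. Members and lists were chosen with earlier results of these data known. All members are named. Values of each library are given for called members, those changed by at least 0.5 on the log2 scale and the 5 highest by RPKM. From the other imprinted, imprint maintenance and growth factor axis lists, up to 4 called genes with the smallest adjusted p are given. Further genes, the markers among them, are named outside this rule. Replicates of a group correlated at 0.992 to 0.996 over genes and differed by more than counting noise. On simulated counts for cKO against WT over 11843 genes, the test recovered 68% of genes changed 1.5-fold and 97% of those changed 2-fold. Of 185 calls 20 were false, a larger share than the threshold of 0.05. Only 100 genes were changed at each of these folds, against 4403 genes called in the data, so these rates need not hold for the data.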

Additional observations from a re-analysis of the deposited data

How the results depend on the processing

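Of 358 recomputed member fold changes, 320 kept direction and side of the threshold, 21 lost a call, 12 gained one and 5, none of them called, changed sign on leaving out 1 library: Sgce ranged from -0.015 (without WT replicate 3) to 0.174, Mirg from -0.142 to 0.0892 (without WT replicate 1), and Ndn from -0.0963 to 0.0368 (without cKO replicate 3, also positive without WT replicate 1 or 2). Over the 14 alternatives the higher members numbered 7 to 11 and the lower 1 to 4, with 1 lower without cKO replicate 1, WT replicate 2 or WT replicate 3. The replicate numbers did not pair the libraries (correlations of deviations 0.33, -0.03 and 0.15 for numbers 1, 2 and 3; cKO replicate 2 correlated best with WT replicate 3); with the replicate block 11 members were higher and 4 lower, gaining Asb4, Meg3 and Igf2r (limma adjusted p = 0.0424, 0.0185 and 6.52e-06), and 3 other imprinted genes were higher and 4 growth factor axis genes lower. Other imprinted genes had 2 higher with no filter (0 to 2 leaving out 1 library). Growth factor axis genes had 1 higher and 1 lower at a mean of at least 5 CPM, 1 higher with DESeq2, and 0 to 4 lower leaving out 1 library. Imprint maintenance genes had 2 higher with no filter and 1 with DESeq2 (1 to 3 leaving out 1 library). At a mean of at least 5 CPM, 0 macrophage markers were left to test, so 0 were higher, and 1 of 2 erythroid markers was higher; 1 erythroid marker was higher with edgeR, and 0 were lower with TMM, RLE, no filter, edgeR and DESeq2. Leaving out 1 library gave 1 to 3 higher and 0 to 1 lower erythroid, 0 to 1 lower mesenchyme and 0 to 1 lower pericyte markers. Apart from filters and left-out libraries, which change what is tested, the cause was not tested. WT depth limits members near 1 CPM, such as Dlk1 with 10 to 20 reads per WT library.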
